A study of Mus musculus with 6 samples.

Results

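The organic anion transporting polypeptides, encoded by the Slco genes, were examined in skull bone cells of mice with and without an APPswe transgene. The genes were Slco4a1, Slco2a1, Slco2b1, Slco3a1, Slco4c1 and Slco5a1, which make 6 of the 17830 genes in the table and 6 of its 11 Slco genes. Slco4a1 was chosen because it is among the genes most reduced in APPswe libraries by the comparison of genotypes itself, and the other genes because they are its relatives. The APPswe to control value of Slco4a1 is therefore given as a description with no test. Of the 6 genes, 5 passed the filter on low counts. Slco4c1 did not, and Slco2b1 and Slco5a1 passed it mainly through their APPswe libraries.

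RNA was sequenced from calvarial cells of mice aged 6 months that had grown out of bone fragments in culture, been replated and then been sorted for tdTomato. The 3 control libraries came from mOCN-Cre;Ai9 mice and the 3 APPswe libraries from TgAPPswemOCN-Cre;Ai9 mice. The background is C57BL/6J, and the animals are described as male. Both genotypes carry mOCN-Cre, a knock-in that places Cre behind the endogenous osteocalcin gene Bglap, and Ai9, a reporter of Cre activity whose red protein is tdTomato. The APPswe mice also carry a human APP gene with the Swedish mutation under the CAG promoter, silent until Cre removes a stop cassette. Expression of the transgene is therefore tied to cells that have, or once had, an active osteocalcin promoter. The transgene is human, and no separate value for it was used here, so it does not check the genotype labels. Nothing in the labels says that the libraries came from separate animals or cultures, so p-values measure the spread between these libraries, which may be technical.

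Slco proteins sit in the plasma membrane and carry large organic anions into cells, among them thyroid hormones, prostaglandins, steroid sulfates, bile acids and many drugs. Their substrates overlap, and the members differ mainly in the tissues that use them. In bone, prostaglandin E2 acts on both formation and resorption, thyroid hormone speeds turnover, and uptake by a transporter is a step by which a cell takes such signals from its surroundings.

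Total counts of control replicates 1, 2 and 3 were 17649704, 18134411 and 18398392, and those of APPswe replicates 1, 2 and 3 were 17263757, 17555489 and 17483141. At such totals 3 counts, taken as the floor of detection, equal 0.167 to 0.173 CPM, where CPM is the count of a gene scaled by edgeR to the library size after TMM normalization. The floor covers counting error only. Control replicate 2 stood apart from the other controls. Summed over Uty, Kdm5d, Eif2s3y and Ddx3y, all on the Y chromosome, it had 2 counts, and each other library had 2257 to 3406, which goes against male animals for that library. The osteocalcin gene Bglap had 1 count in control replicate 2, 159 and 204 in controls 1 and 3, and 115, 128 and 159 in the APPswe libraries. Ibsp, another osteoblast gene, had 3 counts in control replicate 2 and 940 to 1468 in the others. Fold changes of the tested members are therefore given with and without this library. For the related and marker lists, the calls that changed without it are named. All 6 libraries were kept as separate replicates. No pair was as close as sampling noise alone would make it, but repeat libraries of a culture could exceed that noise too. The comparison therefore does not show that they are separate replicates. The closest pair was APPswe replicates 2 and 3, with a chi-square per degree of freedom of 1.57, compared with 5.94 for controls 1 and 3 and 72.9 for controls 1 and 2.

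The transporter genes moved in different directions between the genotypes. Slco4a1 and Slco3a1 were lower in APPswe libraries, Slco2b1 was higher, and the prostaglandin transporter gene Slco2a1 stayed at nearly the same level. With edgeR's quasi-likelihood test, a gene was called at a Benjamini-Hochberg adjusted p of at most 0.05 over the 13484 genes tested and a log2 fold change of at least 1 in size. By that rule Slco3a1 was called lower, where 3.60% of all genes tested were. Slco4a1 was chosen by this comparison, so its call is not counted. Slco2b1 was the 1 member called higher, where 3.74% of all genes were. Only 2 of 3 controls had Slco2b1 at the level asked by the filter on low counts, and with no filter it was called higher too. All 3 APPswe libraries lay below all 3 controls in CPM for Slco3a1 and Slco2a1, as for 22.2% of all genes, and above them for Slco2b1 and Slco5a1, as for 22.8%. Over all genes 504 were called higher and 486 lower, and 670 (4.87%) and 905 (6.58%) without control replicate 2. Without APPswe replicate 1, 2 or 3 the calls came to 317, 291 or 281 higher and 242, 237 or 230 lower. In bulk libraries, fewer cells of a type and less RNA per cell cannot be told apart, for any of these genes.

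**Figure D1:**
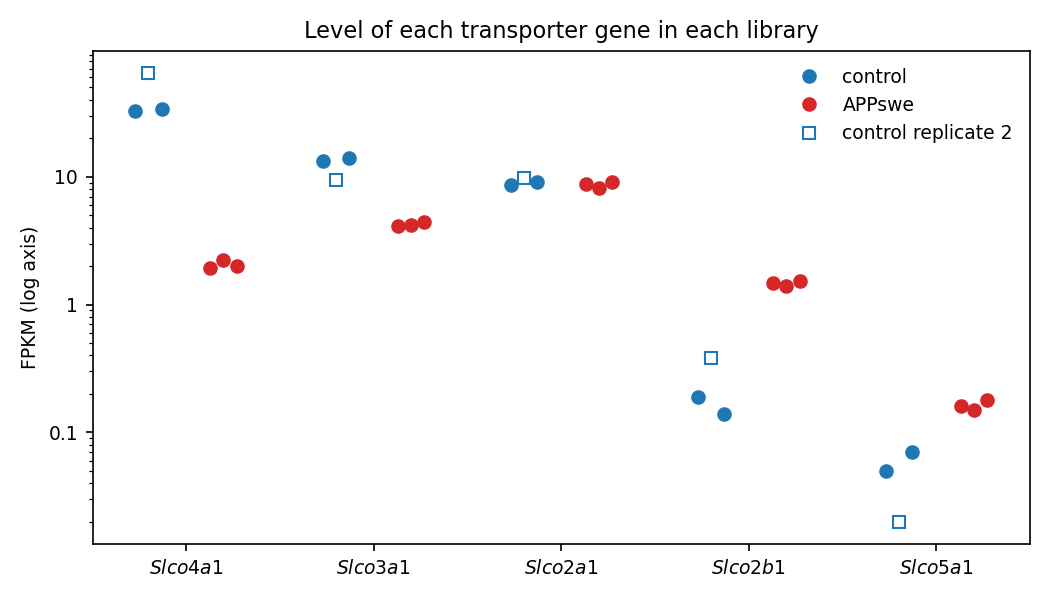
Each point is the FPKM of a transporter gene in a library, on a log axis, with control libraries in blue, APPswe libraries in red and control replicate 2 as an open square. Slco4a1 ranged from 32.68 to 64.68 FPKM in control and from 1.92 to 2.22 FPKM in APPswe libraries, whereas Slco2a1 stayed between 8.24 and 9.74 FPKM in all 6.

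Slco4a1 encodes a transporter known to carry thyroid hormones and prostaglandins, and it is expressed in many tissues. Its gene (NCBI 108115) lies on chromosome 2 at 180456226 to 180474853 of GRCm38.p6 in RefSeq, on the plus strand. GENCODE M21 gives it 5 transcripts, the longest with 12 exons and 3101 bases, and no other gene of that annotation overlaps it. The sequence of its promoter is shown because Slco4a1 carries the largest difference among the members and because the windows of members that moved in opposite directions can be set side by side. Below are the 250 bases before a transcription start of Slco4a1 (chr2:180455995-180456244, plus strand, RefSeq GRCm38.p6), written 5′ to 3′, with GC boxes in capitals.
Slco4a1: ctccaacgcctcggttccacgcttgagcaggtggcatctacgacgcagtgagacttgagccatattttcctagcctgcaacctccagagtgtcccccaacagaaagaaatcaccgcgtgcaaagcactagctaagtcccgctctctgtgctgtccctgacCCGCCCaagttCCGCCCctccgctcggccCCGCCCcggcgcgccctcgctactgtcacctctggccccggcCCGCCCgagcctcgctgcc

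The capitals mark GGGCGG, the GC box bound by Sp factors, here read on the other strand as CCGCCC. It occurs 4 times in this window, at 90, 79, 61 and 19 bases before the start. Of the 32851 promoter windows of the same length in the RefSeq table, 32.7% hold a GC box and 4.09% hold 4 or more. The window has 64.8% G and C and 21 CpG sites, next to medians of 52.4% and 6 over all windows. The last bases of the window lie within the RefSeq span of the gene. Of the 6 members, 4 have a window in that table, 7 windows in all, and Slco3a1 and Slco5a1 are without a window. Each was searched on both strands for 8 motifs, with the share of all windows holding each: TATAAA (12.4%), CCAAT (33.8%), GGGCGG (32.7%), CACGTG (6.02%), TGACTCA (4.46%), AACCACA (4.40%), GAGGAAGT (2.44%) and TGACGTCA (1.55%). The other window of Slco4a1, at chr2:180460728-180460977, holds none of the 8. The window of Slco4c1, at chr1:96872172-96872421, holds GGGCGG and AACCACA. A match describes the letters of the window and says nothing of binding.

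Slco4a1 was counted 1290, 3071 and 1459 times in control replicates 1, 2 and 3 and 75, 90 and 94 times in APPswe replicates 1, 2 and 3. These counts equal 74.5, 173 and 82.3 CPM in control and 4.20, 5.01 and 5.28 CPM in APPswe libraries. Control replicate 2 was the highest library, controls 1 and 3 were close to each other, and the APPswe libraries were far below with no overlap. Control libraries averaged 110 ± 54.5 CPM (SD, n = 3) and APPswe libraries 4.83 ± 0.561 CPM (SD, n = 3). This gives a log2 fold change of -4.50, a level 22.7-fold lower in APPswe libraries. It was -4.01, or 16.2-fold lower, without control replicate 2.

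The FPKM of Slco4a1, the deposited value per transcript length and sequencing depth, came to 32.68, 64.68 and 33.65 in control and 1.92, 2.22 and 2.01 in APPswe libraries. Among all genes this placed it at percentiles 83.8, 92.1 and 84.4 of FPKM in the control libraries and at percentiles 37.9, 39.3 and 38.5 in the APPswe libraries. So a gene in the upper range of expression in control libraries lay below the median gene in APPswe libraries. The libraries carry names in 2 styles, with controls 1 and 2 and APPswe replicate 1 in a hyphen style and the others in a style without hyphens. The log2 ratio of mean CPM was -4.88 within the hyphen style and -4.00 within the other. Control replicate 2 is also the library whose name carries a letter that the other 5 names do not have. What the name styles and this letter stand for is not given in the sources used here.

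When the genes called lower were limited to those with groups that did not overlap and a log2 CPM averaging 1 or more, Slco4a1 had rank 3 of 380 by log2 fold change. Fgf10, a growth factor, and Mcoln3, a lysosomal cation channel, came before it at -4.94 and -4.75. LOC115488503 and the interferon-induced gene Ifit3 came after it at -4.01 and -3.73. Without control replicate 2 the same rule put Slco4a1 at rank 13 of 551, with LOC115488503 before it at rank 7 and Ifit3 at rank 29. The log2 fold changes of LOC115488503 and Ifit3 were then -4.55 and -3.09, and those of Fgf10 and Mcoln3 -5.44 and -5.28. These neighbours differed in how control replicate 2 behaved. Fgf10 had 756, 82 and 647 counts in control replicates 1, 2 and 3, Mcoln3 669, 45 and 613, and LOC115488503 667, 48 and 654. In these 3 genes control replicate 2 was the control library nearest to the APPswe libraries, whose counts were 9 to 31. Ifit3, like Slco4a1, was highest in control replicate 2, with 1728, 4651 and 1700 counts in control and 218, 205 and 191 in APPswe libraries.

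The genes around Slco4a1 on chromosome 2 were read for the same libraries. The microRNA genes Mir1a-1 and Mir133a-2 and their host Mir1a-1hg lie on its left in RefSeq and were not analysed here, nor was Gm30144 on its right. Ntsr1, the neurotensin receptor gene next to it on the right, had 1 count in control replicate 1 and 0 in the others, and was not tested. Mrgbp, which encodes a subunit of a histone acetyltransferase complex, had 462, 301 and 457 counts in control and 349, 369 and 338 in APPswe libraries. Its groups overlapped, and its log2 fold change was -0.23 (standard error 0.18, quasi-likelihood test of edgeR, Benjamini-Hochberg adjusted p = 0.393).

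Slco3a1 encodes a transporter of prostaglandins and thyroid hormone. The gene (NCBI 108116) lies on chromosome 7 at 74275418 to 74554780. It was counted 734, 568 and 804 times in control and 247, 262 and 264 times in APPswe libraries, or 42.4, 31.9 and 45.4 against 13.8, 14.6 and 14.8 CPM. Here control replicate 2 was the lowest control, in contrast to Slco4a1, and it still lay above every APPswe library. The mean was 39.9 ± 7.06 CPM (SD, n = 3) in control libraries. In APPswe libraries it was 14.4 ± 0.515 CPM (SD, n = 3). Slco3a1 fell 2.76-fold, a log2 fold change of -1.47 (standard error 0.15, 95% interval -1.81 to -1.12, quasi-likelihood test of edgeR, Benjamini-Hochberg adjusted p = 0.00155), lower in 3 of 3 APPswe libraries. The log2 fold change without control replicate 2 was -1.60 (standard error 0.08), or 3.03-fold lower. Within the hyphen style of library names the log2 ratio was -1.42, and within the other style -1.62. An antisense gene of GENCODE M21, Gm7580, overlaps Slco3a1, and the strand used in counting is not given in the sources used here, so reads of the pair cannot be told apart.

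Slco2a1 encodes the prostaglandin transporter, which takes up prostaglandin E2 before its breakdown inside the cell by the enzyme encoded by Hpgd. Loss of either human gene causes primary hypertrophic osteoarthropathy, a disease with new bone on the long bones. The gene (NCBI 24059) lies on chromosome 9 at 103007061 to 103096002. It was counted 809, 818 and 873 times in control and 741, 724 and 792 times in APPswe libraries. The libraries of both genotypes were close together, and control replicate 2 lay between controls 1 and 3 in counts. In CPM the means were 47.3 ± 1.73 (SD, n = 3) in control and 42.1 ± 2.14 (SD, n = 3) in APPswe libraries. The groups did not overlap in CPM. They did overlap in FPKM, at 8.68, 9.74 and 9.14 in control and 8.77, 8.24 and 9.06 in APPswe libraries. For Slco2a1 the log2 fold change was -0.17 (standard error 0.08, 95% interval -0.35 to 0.02), and it was not called (quasi-likelihood test of edgeR, Benjamini-Hochberg adjusted p = 0.166). Without control replicate 2 the log2 fold change was -0.18 (95% interval -0.35 to -0.02), with an edgeR adjusted p of 0.0687, the lowest over the alternatives run, which reached 0.597. The antisense gene Gm47468 overlaps Slco2a1 in GENCODE M21. Its RefSeq window at chr9:103008237-103008486 lies inside the span of the gene and overlaps a 5′ untranslated exon of another transcript in GENCODE M21, so its sequence is not printed. Of the motifs searched, it holds TATAAA and GGGCGG.

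**Figure D2:**
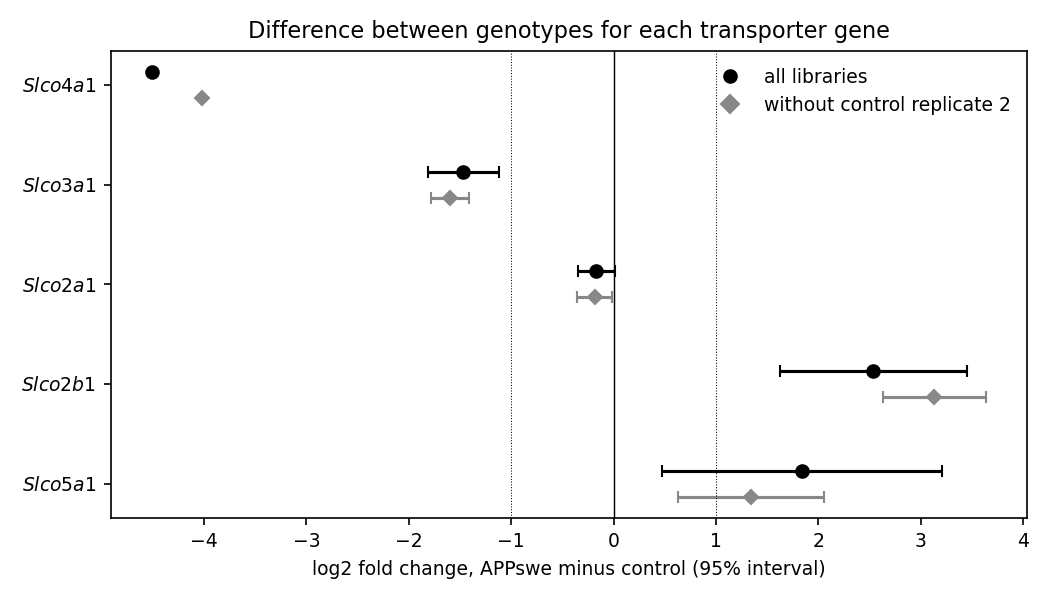
Points are log2 fold changes of APPswe minus control with their 95% intervals, which are left out for Slco4a1, from all libraries (black circles) and without control replicate 2 (grey diamonds), and dotted lines mark a log2 fold change of 1 in either direction. The values run from -4.50 for Slco4a1, which was chosen by this comparison, over -1.47 for Slco3a1 and -0.17 for Slco2a1 to 1.84 for Slco5a1 and 2.54 for Slco2b1.

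Slco2b1 encodes a transporter of steroid sulfates such as estrone sulfate and of many drugs. The gene (NCBI 101488) lies on chromosome 7 at 99657804 to 99711340, on the minus strand. Its promoter window is printed as the counterpart of the Slco4a1 window, since this member moved in the opposite direction. Whether either window has a part in these differences was not tested. The 250 bases before its start (chr7:99711341-99711590, minus strand, RefSeq GRCm38.p6) are written 5′ to 3′ and hold none of the 8 motifs, so no letters are in capitals.
Slco2b1: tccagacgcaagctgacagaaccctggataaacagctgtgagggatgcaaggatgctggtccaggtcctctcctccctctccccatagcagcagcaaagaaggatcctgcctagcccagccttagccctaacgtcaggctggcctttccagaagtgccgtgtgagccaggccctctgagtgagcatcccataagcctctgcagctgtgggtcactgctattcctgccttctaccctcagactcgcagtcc

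This window has 58% G and C and 4 CpG sites. Of the other 2 Slco2b1 windows, the 1 at chr7:99695810-99696059 holds CCAAT, at 155 bases before the start, and the 1 at chr7:99706843-99707092 holds no match. Slco2b1 was counted 12, 27 and 9 times in control and 94, 92 and 98 times in APPswe libraries. The controls were low, with control replicate 2 the highest of them, and the 3 APPswe libraries lay close together above them. In CPM the control libraries gave 0.693, 1.52 and 0.508 and the APPswe libraries 5.27, 5.13 and 5.51. The log2 fold change was 2.54 (standard error 0.38, 95% interval 1.63 to 3.45, quasi-likelihood test of edgeR, Benjamini-Hochberg adjusted p = 0.00601), higher in 3 of 3 APPswe libraries, so Slco2b1 rose 5.81-fold. It was 3.13 (standard error 0.23), or 8.77-fold, without control replicate 2. Within the hyphen style of library names the log2 ratio was 2.25, and within the other style 3.39. At the level asked by the filter on low counts, Slco2b1 had 2 of 3 controls and 3 of 3 APPswe libraries, and with no filter it was called higher too. The antisense genes Gm15635 and Gm34280 of GENCODE M21 overlap Slco2b1, and reads of either cannot be told apart from its own. Gm34280, at chr7:99694297-99712777, also spans the printed window.

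Slco5a1 encodes a member of the family whose substrates are little known. The gene (NCBI 240726) lies on chromosome 1 at 12866549 to 12992796. It was counted 7, 1 and 11 times in control and 22, 22 and 26 times in APPswe libraries. All counts were low, control replicate 2 was the lowest library, below the floor of 3 counts, and the groups did not overlap. Control libraries averaged 0.360 ± 0.285 CPM (SD, n = 3) and APPswe libraries 1.31 ± 0.134 CPM (SD, n = 3). The log2 fold change was 1.84 (standard error 0.57, 95% interval 0.47 to 3.21), and Slco5a1 was not called (quasi-likelihood test of edgeR, Benjamini-Hochberg adjusted p = 0.0616). Only 1 of 3 controls reached the level asked by the filter on low counts, so Slco5a1 was tested through its APPswe libraries and its test carries no weight. Without control replicate 2 it was called, at a log2 fold change of 1.34 (standard error 0.32) and an edgeR adjusted p of 0.00583, the lowest over the alternatives run, which reached 0.197. The call of this gene thus turned on 1 library.

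Slco4c1, a transporter known from the kidney, had 0 counts in all 6 libraries (NCBI 227394, chromosome 1, 96816270 to 96872193), which allows up to 0.173 CPM. The other 5 Slco genes of the table had low counts as well. Slco1a5 had 15, 2 and 10 counts in control and 9, 11 and 6 in APPswe libraries, or 0.514 ± 0.379 against 0.485 ± 0.139 CPM (SD, n = 3), and its groups overlapped. Slco1a1, Slco1a4, Slco1a6 and Slco1c1 had 0 to 2 counts in each library. Slco1c1 is the thyroxine carrier known from the blood-brain barrier. None of these passed the filter on low counts.

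The order of the members by level per transcript length changed between the genotypes. In control libraries mean FPKM ran from Slco4a1 at 43.7 ± 18.2 (SD, n = 3) over Slco3a1 at 12.3 ± 2.51 and Slco2a1 at 9.19 ± 0.532 to Slco2b1 at 0.237 ± 0.127 and Slco5a1 at 0.0467 ± 0.0252. In APPswe libraries the order was Slco2a1 at 8.69 ± 0.416, Slco3a1 at 4.24 ± 0.185, Slco4a1 at 2.05 ± 0.154, Slco2b1 at 1.47 ± 0.0600 and Slco5a1 at 0.163 ± 0.0153. Slco3a1 and Slco2a1 did not differ beyond their spread in control libraries, since Slco3a1 at 9.41 FPKM lay below Slco2a1 at 9.74 FPKM in control replicate 2. Every other pair of neighbours in these orders kept its order in each library of its group. The ratio of Slco4a1 to Slco2a1 FPKM was 3.76, 6.64 and 3.68 in control and 0.219, 0.269 and 0.222 in APPswe libraries.

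The summed FPKM of the 11 Slco genes was 55.2, 84.3 and 57.4 in control and 16.7, 16.5 and 17.4 in APPswe libraries. Slco4a1 made up 59.2%, 76.7% and 58.6% of that sum in control libraries and 11.5%, 13.5% and 11.5% in APPswe libraries. Slco2a1 made up 15.7%, 11.6% and 15.9% in control and 52.5%, 50.1% and 52.0% in APPswe libraries, although its own FPKM overlapped between the groups. Slco3a1 kept a share of 24.0% and 24.6% in controls 1 and 3 and of 24.6%, 25.3% and 25.5% in APPswe libraries, and had 11.2% in control replicate 2. Slco2b1 held 0.244% to 0.451% in control and 8.57% to 8.81% in APPswe libraries. Without Slco4a1 the sum was 22.6, 19.6 and 23.8 FPKM in control and 14.8, 14.2 and 15.4 FPKM in APPswe libraries. Shares of a sum are not independent, and a lower level of Slco4a1 by itself raises the other shares.

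**Figure D3:**
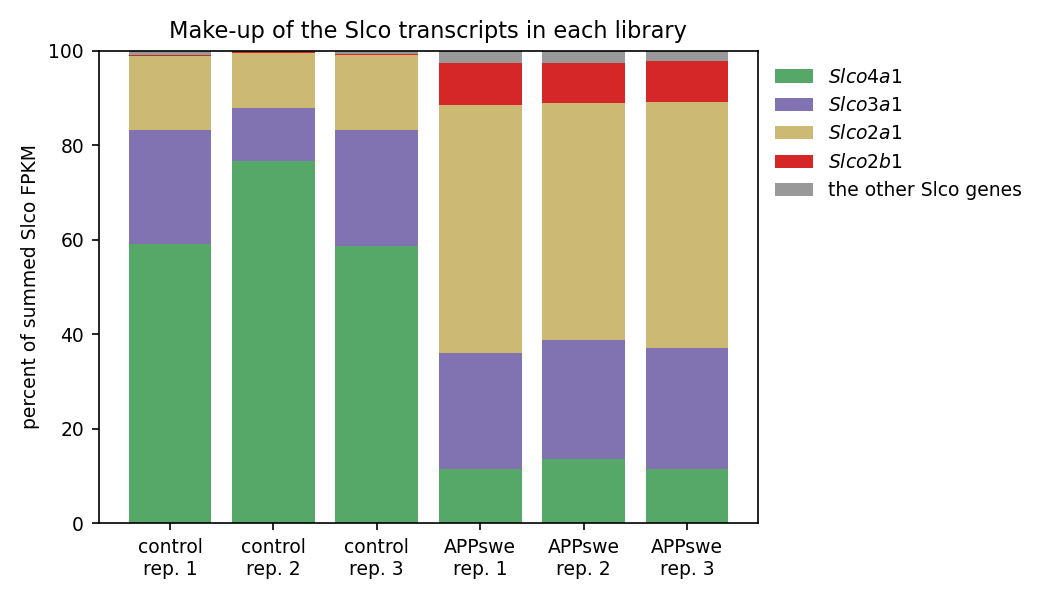
Stacked bars give each Slco gene's percent of the summed Slco FPKM in each library. Slco4a1 holds 58.6% to 76.7% of the control bars, and Slco2a1 holds 50.1% to 52.5% of the APPswe bars.

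Control replicate 2 did not move the members in a single direction. Relative to the mean CPM of controls 1 and 3, it had 2.20 times the Slco4a1 and 2.53 times the Slco2b1. It had 0.728 times the Slco3a1 and 0.958 times the Slco2a1. Its Slco5a1, at 1 count, was below the floor of detection. For Slco4a1 and Slco5a1 it lay farther from the APPswe libraries than the other controls, and for Slco3a1, Slco2a1 and Slco2b1 it lay nearer to them.

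Genes with a pattern like a member's were found by Pearson's r of log2 CPM over the 6 libraries, among tested genes averaging a log2 CPM of 1 or more. The values share the same libraries and the same split by genotype, so high r is common and is given only as a description. For Slco4a1 the 10 most alike were Rnf157, Zfand2a, Insig1, Siglec1, Folr2, Tinagl1, Cd72, Nf2, H2-Q4 and Vac14, with r from 0.9986 to 0.9994. Their fold changes were smaller than that of Slco4a1, with log2 values of -1.86 to -0.50. Rnf157, the closest, had 23.6, 28.6 and 24.9 CPM in control and 12.3, 12.6 and 12.9 CPM in APPswe libraries. Folr2, a folate receptor gene, had 199, 262 and 201 CPM in control and 60.0, 61.7 and 61.1 CPM in APPswe libraries. All 10 were highest in control replicate 2, as Slco4a1 was, which comes with their choice by r. For Slco3a1 the 3 most alike were Tgfb1, Ctsb and Atrip, and for Slco2a1 they were Mppe1, Tmem120b and Mab21l3. For Slco2b1 they were Sirpb1c, Atp2b4 and H2-Aa, and for Slco5a1 they were Bloc1s1, Dock6 and Pdzd4. Sirpb1c had 9.01, 18.2 and 7.56 CPM in control and 55.3, 55.4 and 55.9 CPM in APPswe libraries.

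Markers of the cell types that such a culture could hold also differed between the genotypes. For comparison, 3.60% of all genes tested were called lower and 3.74% higher. Without control replicate 2 these shares were 6.58% and 4.87%. The summed CPM of 12 osteoblast markers, of which Spp1 was the most abundant, was 17997, 17566 and 18849 in control and 11644, 12227 and 12284 in APPswe libraries. Spp1 carried that difference. Without it the sums of the groups overlapped, and the median of the list went the other way, at 20.9, 1.91 and 22.0 CPM in control and 29.8, 32.0 and 33.9 CPM in APPswe libraries. Spp1 was called lower and Sp7 higher, and the other 10 were not called, although Runx2, Alpl and Pth1r, like Sp7, were higher in each APPswe library than in each control. Col1a2, like Spp1, was lower in each. Bglap2, Dmp1 and Phex were called lower as well without control replicate 2. All 13 macrophage markers had counts in all 6 libraries. Their sum, led by Lyz2, was 23978, 18587 and 25589 CPM in control and 12908, 13826 and 13946 CPM in APPswe libraries, with Cd14 the 1 of 13 called lower. The 1 called lower without control replicate 2 was Lyz2, and 1 call in 13 is near the shares over all genes. By adjusted p alone in edgeR's test, Adgre1, Cd68, Lyz2, Itgam, Cd14, C1qa, C1qb and C1qc were lower, as were 12.0% of all genes. Csf1r, Mrc1, Fcgr1, Ptprc and Tyrobp were not. The median log2 fold change of the macrophage list was -0.74. The sum of 8 endothelial markers, led by Eng, was 313, 242 and 341 CPM in control and 72.0, 78.4 and 78.7 CPM in APPswe libraries, and Kdr, Vwf, Eng and Flt1 were called lower. All but Eng, 7 of 8, were called lower without control replicate 2. Macrophage and endothelial sums were thus lower in each APPswe library than in each control, with and without their most abundant gene, as Slco4a1 and Slco3a1 were, and the part of these cell types in those results was not tested. The cells were sorted for tdTomato, a mark of past osteocalcin-driven Cre, so neither cell type is what the sort was meant to collect.

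In control replicate 2, the library with the most Slco4a1, several defining markers were near 0. The endothelial genes Pecam1, Cdh5 and Emcn had 1, 6 and 2 counts there, against 827, 1009 and 1191 counts in control replicate 1. The osteoblast genes Bglap, Bglap2, Ibsp and Dmp1 had 1, 7, 3 and 2 counts there. Other markers of the same lists were high in it. Kdr, Vwf and Eng, with 453, 979 and 2810 counts, and Col1a1 and Col1a2, with 101492 and 101971, were at their highest of the 6 libraries. No marker of the macrophage list was near 0 in any library. In CPM, Csf1r, Adgre1, Itgam, Cd14, Fcgr1 and Ptprc were highest in control replicate 2, as Slco4a1 was. Lyz2, Cd68, Mrc1, C1qa, C1qb, C1qc and Tyrobp were lower in it than in controls 1 and 3. The median of the macrophage list was 595, 754 and 574 CPM in control and 464, 421 and 407 CPM in APPswe libraries.

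Osteoclast and muscle marker sums were higher in APPswe libraries, as Slco2b1 was. Of all genes tested, 3.74% were called higher and 3.60% lower, or 4.87% and 6.58% without control replicate 2. The 8 osteoclast markers, led by Ctsk, summed to 290, 158 and 274 CPM in control and 730, 731 and 719 CPM in APPswe libraries. Acp5 and Mmp9 were called higher, and Dcstamp too without control replicate 2. Mmp9 had 2 of 3 controls at the level asked by the filter on low counts, and with no filter it was called higher too. Oscar and Ocstamp were also called, but they passed that filter through their APPswe libraries, so their calls carry no weight. Calcr, with 0 to 3 counts, was at 0 in controls 2 and 3. The 10 muscle markers, led by Acta1, summed to 2.71, 12.3 and 2.71 CPM in control and 176, 168 and 170 CPM in APPswe libraries. Of the 9 tested, 7 passed the filter only through their APPswe libraries, so their calls carry no weight as a count. The remaining Acta1 and Mylpf were called higher, with and without control replicate 2. Ckm was at 0 in all controls, Myod1 in controls 1 and 3 and Actn2 in control 3. The 6 fibroblast markers, led by Col3a1, summed to 3409, 1803 and 3411 CPM in control and 5776, 5930 and 5863 CPM in APPswe libraries, with Pdgfra and Col3a1 called higher. This difference rests on Col3a1. Without it the sum was 1302, 668 and 1254 CPM in control and 1032, 1042 and 1024 CPM in APPswe libraries, and the groups overlapped. Dcn was called lower without control replicate 2. The part of these cell types in the rise of Slco2b1 was not tested.

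**Figure D4:**
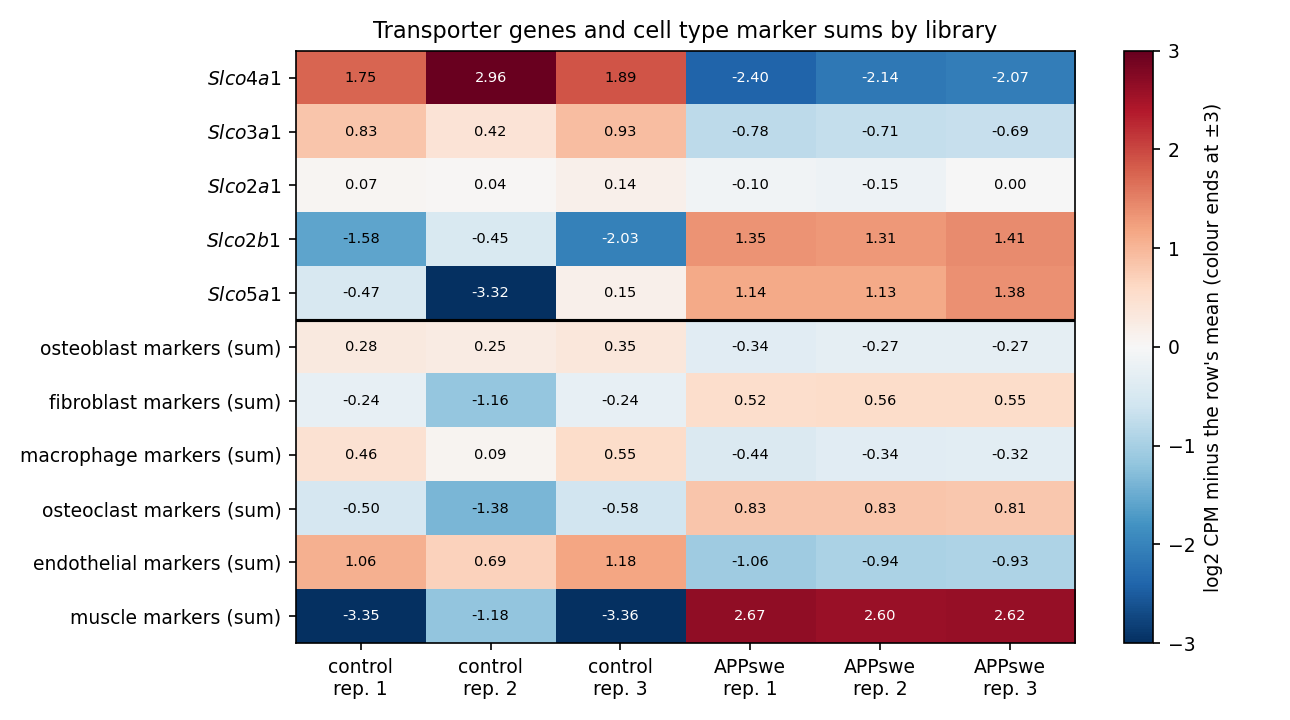
Colours and numbers give log2 CPM minus the mean of the row, for each transporter gene and for the summed CPM of each marker list, in each library. Slco4a1 lies at 1.75 to 2.96 in control and -2.40 to -2.07 in APPswe libraries, and the muscle markers at -3.36 to -1.18 and 2.60 to 2.67.

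Prostaglandins are substrates of several Slco proteins, and 17 of 20 listed genes of their synthesis, breakdown and receptors were tested. Of these, the receptor genes Ptgfr, Ptger2 and Tbxa2r were called higher and Hpgd lower, next to 3.74% and 3.60% of all genes. The receptor gene Ptger3 was called too, but it passed the filter on low counts only through its APPswe libraries. The median log2 fold change of the list was 0.45, and 0.34 without control replicate 2. Ptgfr, the receptor gene for prostaglandin F2 alpha, had 84, 54 and 83 counts in control and 440, 412 and 443 in APPswe libraries. The APPswe libraries lay close together, far above all controls. The log2 fold change of Ptgfr was 2.53 (standard error 0.19, quasi-likelihood test of edgeR, Benjamini-Hochberg adjusted p = 0.000763). Ptger2, which encodes the EP2 receptor of prostaglandin E2, had 82, 85 and 92 counts in control and 235, 238 and 242 in APPswe libraries, and its log2 fold change was 1.44 (standard error 0.12). Tbxa2r, the thromboxane receptor gene, had 25, 29 and 26 counts in control and 64, 79 and 96 in APPswe libraries, with 1.55 as its log2 fold change (standard error 0.22). Ptger3 had 5 counts in each control library and 17, 15 and 13 in APPswe libraries. With no control at the level of the filter, its test carries no weight. Its call, at a log2 fold change of 1.54 and an edgeR adjusted p of 0.0163, was lost on leaving out any library other than control replicate 2. Those fits gave log2 fold changes of 1.44 to 1.63 and edgeR adjusted p-values of 0.0522 to 0.0884. Ptger3 was called in 6 of 14 alternatives, with adjusted p-values of 0.00283 to 0.0990 over them. With DESeq2 and with the replicate block it was not called, at log2 fold changes of 1.56 and 1.54.

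Among the synthesis and breakdown genes 10 of 11 were tested. Hpgd, which encodes the enzyme that inactivates prostaglandins after uptake by Slco2a1, was the 1 gene called. It had 1974, 1349 and 1770 counts in control and 755, 682 and 707 in APPswe libraries. Control replicate 2 was the lowest control, and the groups did not overlap. Its log2 fold change was -1.27 (standard error 0.15, quasi-likelihood test of edgeR, Benjamini-Hochberg adjusted p = 0.00286). Without control replicate 2, Ptgs2, the inducible cyclooxygenase gene, and the prostaglandin E synthase gene Ptges were called higher and the thromboxane synthase gene Tbxas1 lower. Ptgs2 had 467, 1157 and 439 counts in control and 1151, 1053 and 999 in APPswe libraries, so control replicate 2 decided its overlap. Ptges3, a co-chaperone gene with the highest mean FPKM of the list, was at 72.9 ± 8.56 FPKM (SD, n = 3) in control and 84.5 ± 5.56 FPKM (SD, n = 3) in APPswe libraries and was not called. Thus of the pair that clears prostaglandin E2, the uptake gene Slco2a1 was not called and the enzyme gene Hpgd was lower.

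Thyroid hormone is carried by Slco4a1 and other family members, and 16 of 20 listed genes of its transport, conversion and nuclear action were tested. Dio3, which encodes the deiodinase that inactivates thyroid hormone, was the 1 gene called, next to 3.74% of all genes called higher and 3.60% lower, and the median log2 fold change of the list was 0.03. Dio3 had 229, 340 and 283 counts in control and 1227, 1501 and 1428 in APPswe libraries. All APPswe libraries were far above all controls, and control replicate 2 was the highest control. Dio3 rose 4.81-fold, or by 2.27 in log2 (standard error 0.15, quasi-likelihood test of edgeR, Benjamini-Hochberg adjusted p = 0.000527). Without control replicate 2 the receptor gene Thrb was called lower as well, and the median was 0.07. Slc3a2, the heavy chain of amino acid carriers that also take iodothyronines, had the highest mean FPKM of the list, at 120 ± 6.51 (SD, n = 3) in control and 176 ± 1.17 (SD, n = 3) in APPswe libraries. Its log2 fold change of 0.38 (standard error 0.10) was under the size needed for a call.

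**Figure D5:**
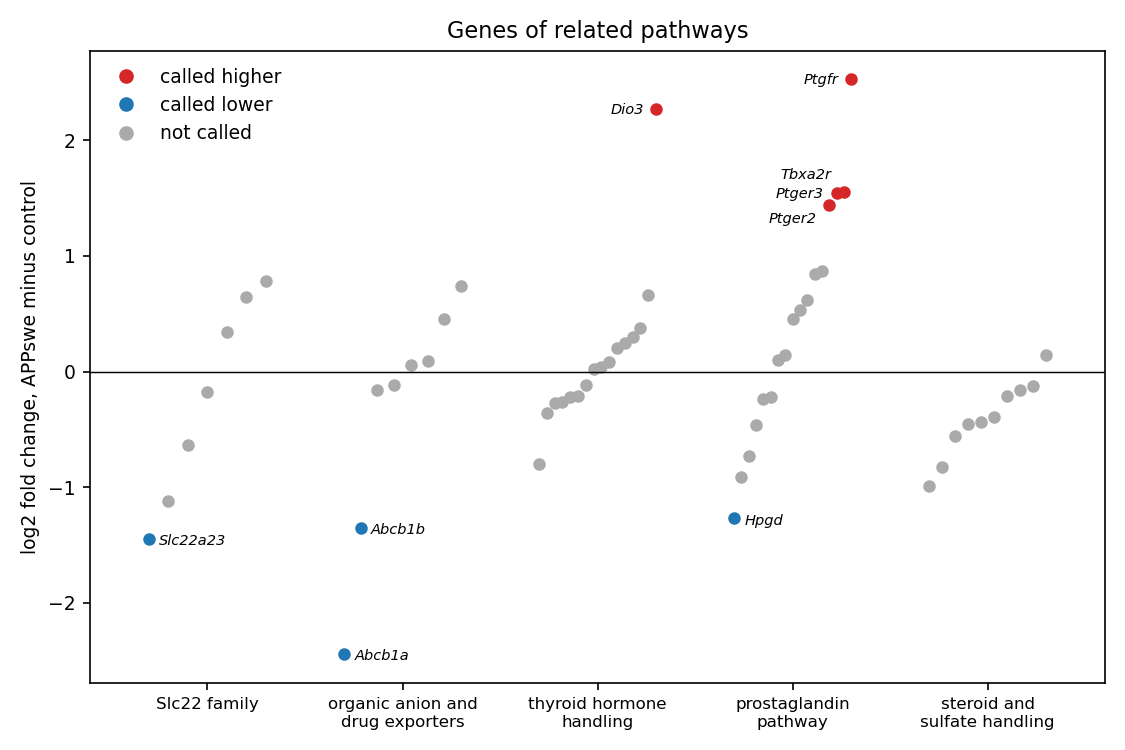
Each point is the log2 fold change, APPswe minus control, of a tested gene in each of 5 lists, in red where called higher, blue where called lower and grey where not called. Ptgfr at 2.53 and Dio3 at 2.27 were the highest, and Abcb1a at -2.44 was the lowest.

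The Slc22 genes encode the other large family of organic ion carriers, and 7 of 16 in the table were tested. Slc22a23, a member whose substrates are little known, was the 1 gene called, next to 3.60% of all genes called lower, with a median of -0.18 over the 7. It had 226, 147 and 222 counts in control and 74, 78 and 69 in APPswe libraries. Its groups did not overlap, and its log2 fold change was -1.45 (standard error 0.21, quasi-likelihood test of edgeR, Benjamini-Hochberg adjusted p = 0.00501). It was called in 15 of 17 alternatives, and limma on log2(FPKM + 1), with and without a filter, gave -0.76 and no call. Slc22a4, the ergothioneine carrier gene with the highest mean FPKM of the family, had 655, 111 and 627 counts in control and 228, 208 and 218 in APPswe libraries. Control replicate 2 lay below the APPswe libraries and controls 1 and 3 above them, and Slc22a4 was called lower once that control was left out, at a log2 fold change of -1.58 (standard error 0.09). The median of the 7 was -0.01 without that library.

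Of the genes that export organic anions and drugs, 8 of 12 listed were tested, with a median log2 fold change of -0.03, or -0.04 without control replicate 2. Abcb1a and Abcb1b, which encode the mouse forms of P-glycoprotein, were called lower, as 3.60% of all genes were. Abcb1b had 1075, 1671 and 1114 counts in control and 539, 504 and 488 in APPswe libraries, and its log2 fold change was -1.35 (standard error 0.17, quasi-likelihood test of edgeR, Benjamini-Hochberg adjusted p = 0.00354). Abcb1a had 81, 383 and 99 counts in control and 40, 23 and 41 in APPswe libraries. Both were highest in control replicate 2, as Slco4a1 was. The log2 fold change of Abcb1a was -2.44 (standard error 0.65, edgeR adjusted p = 0.0392) and -1.40 (standard error 0.23) without control replicate 2. Its call was lost on leaving out APPswe replicate 1, 2 or 3, with log2 fold changes of -2.56, -2.22 and -2.58 and edgeR adjusted p-values of 0.122, 0.144 and 0.120. Over the 17 alternatives run it was called in 9, with an adjusted p of 0.000369 to 0.146. With the replicate block Abcb1a was not called, at a log2 fold change of -2.08. The 2 genes are close copies, and reads they share could be split between them by the counting. Abcc1, an exporter of leukotrienes and conjugates with the highest mean FPKM of the list, was at 28.3 ± 5.96 FPKM (SD, n = 3) in control and 49.7 ± 1.63 FPKM (SD, n = 3) in APPswe libraries. Its log2 fold change of 0.74 was under the size needed for a call.

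Steroid sulfates are substrates of Slco2b1, and 10 of 15 listed genes of steroid and sulfate handling were tested. By edgeR's call rule 0 were called, as with DESeq2, and the median log2 fold change was -0.42, or -0.49 without control replicate 2, where 0 were called too. At an unadjusted p under 0.05 in edgeR's test, 5 of the 10 were lower and 0 higher, where 19.4% of all genes tested were lower and 17.8% higher. By adjusted p alone 4 were lower, as were 12.0% of all genes. Hsd17b12, a fatty acid elongation and steroid enzyme gene with the highest mean FPKM of the list, was at 108 ± 9.14 FPKM (SD, n = 3) in control and 64.4 ± 7.03 FPKM (SD, n = 3) in APPswe libraries. Its log2 fold change was -0.82 (standard error 0.10, quasi-likelihood test of edgeR, Benjamini-Hochberg adjusted p = 0.00314), under the size needed for a call. Leaving out control replicate 1 or 3 or APPswe replicate 1 or 2 gave 1 gene called lower.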

How the data were processed

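RNA sequencing of 6 libraries was analysed, 3 of each genotype, with groups and replicate numbers from the sample labels. Values of unit count are raw reads per gene as deposited. FPKM, also deposited, was calculated and rounded by the authors, and its blank cells, in 397 genes for libraries named with a hyphen and 716 for the others, were read as 0. The authors' own log2 fold changes and p-values in the table describe their comparison of the genotypes and were not used. GRCm38 is the genome build in the submitters' processing notes, and the aligner and counting tool are not given in the sources used here.

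The comparison of genotypes used edgeR 4.0.16 (R 4.3.3): TMM normalization, filterByExpr, which left 13484 of 17830 genes, and the quasi-likelihood test with no covariate and Benjamini-Hochberg adjustment over all genes tested. Total counts were 17263757 to 18398392 per library. Standard errors were taken as the log2 fold change over the square root of F. The tests were tested on simulated data before use. Alternatives were DESeq2 1.42.0, its size factors in edgeR, library totals in place of TMM, 2 other filters, a replicate block, a covariate for the style of library names, limma 3.58.1 on log2(FPKM + 1) or log2(FPKM + 0.1) for genes with an FPKM of at least 0.5 in 3 libraries or without that filter, adjusted p alone, and each library left out. Leaving out each library was planned, and printing the fit without control replicate 2 beside the results was chosen after seeing the data.

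The genes named are the 6 members, all other Slco genes, each called gene and the highest mean FPKM of the 5 related lists, the closest patterns (10 for Slco4a1, 3 for others), the 2 ranks on either side of Slco4a1, its 3 nearest genes on each side, and cell type markers. Members and lists were chosen with earlier results of these data known. Ptgs2, Ptges, Tbxas1 and Thrb were added to them once their values were known, and the division of the prostaglandin list into receptors and other genes was made then too. Promoter windows came from RefSeq GRCm38.p6 and gene models from GENCODE M21. Figures were drawn with matplotlib 3.10.9.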

Additional observations from a re-analysis of the deposited data

How the results depend on the processing

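Slco3a1 was called lower in all 17 alternatives and ranged from -1.60 to -1.32 in log2 fold change (adjusted p up to 0.0169) and Slco2b1 from 1.00 to 3.13 over the 16 that kept it (adjusted p up to 0.0381). Slco2a1 was called in none (-0.21 to -0.07). Slco5a1 ranged from 0.15 to 2.47 and was called only without control replicate 2. With at least 10 counts in every library 0 members were called higher, since Slco2b1 and Slco5a1 have fewer in a control, and 320 genes were called higher. Leaving out each library gave 1 member called higher, Slco2b1, or 2 without control replicate 2. The other was Slco5a1, whose test carries no weight. Leaving out each library also gave 281 to 670 genes higher and 230 to 905 lower, the most without control replicate 2. For Slco4a1 it gave -4.72 to -4.01. With limma on log2(FPKM + 1), Slco4a1 was -3.80, with and without the filter, and 324 genes were called higher and 187 lower, or 305 and 170 without the filter. On log2(FPKM + 0.1) 287 were lower. At adjusted p alone 1414 were higher and 1622 lower. The pseudocount shrinks differences of low genes, and the cause of the other shifts was not tested. Higher genes made 50.9% of all calls, 63.4%, 63.3% and 64.2% in the limma fits, and 42.5% without control replicate 2.

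The same replicate numbers do not pair the libraries: their deviations from group means correlated at 0.07, -0.04 and 0.16. With the replicate block 384 genes were called higher and 324 lower, Slco3a1 and Slco2b1 kept their calls, and Slco4a1 was at -4.41. Abcb1a and Ptger3 lost their calls with the block, at log2 fold changes of -2.08 and 1.54, next to -2.44 and 1.54 in the main fit. Abcb1a also lost its call with the covariate for name style, at -2.09, and in the limma fits, at -1.80 to -0.98. The libraries of a number did not each correlate best with their own number. Slco4c1 and the Slco1 genes other than Slco1a5 had counts below the floor.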
